A study of Mus musculus with 4 samples.

Results

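The 31 genes described here act in homologous recombination and in the Fanconi anaemia pathway of DNA repair, and were taken by symbol from a fixed list. All 31 were among the 32285 genes of the count tables, and each had at least 1 UMI (a molecular tag that counts a captured transcript once). The tables come from single-cell RNA sequencing of mouse ovaries in 4 groups, all collected at 4 hours after the last dose from mice treated at the prepubertal age of postnatal day 25. Control mice received PBS/saline. The doxorubicin group received 3 mg/kg doxorubicin, an anthracycline that breaks DNA, in 2 weekly doses. Another group received the same doxorubicin with 0.75 mg/kg recombinant human AMH (anti-Müllerian hormone, a product of granulosa cells), written doxorubicin+AMH, and the AMH group received 0.75 mg/kg AMH alone. Each group was 1 library made from 1 ovary of each of 5 animals, pooled before dissociation. The spread between animals was therefore not measured, and no difference between treatments has a replicate check. Where 4 values stand in a row they follow 1 library order: first control, then doxorubicin alone, then doxorubicin+AMH, and last AMH alone. Strain and route of dosing are not given in the sources used here. The series' title poses the question whether AMH acts on the DNA damage response to doxorubicin, and these genes are part of that response.

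Homologous recombination repairs a double-strand break by copying an intact sister chromatid. Break ends are first cut back to single strands, BRCA2 then acts on these strands with the help of BRCA1, BARD1 and PALB2, and strand exchange proteins help them find and pair with the matching sequence. The Fanconi pathway acts on crosslinks between DNA strands: a core complex with the enzyme UBE2T attaches ubiquitin to the FANCI and FANCD2 pair, which directs repair that ends in recombination. Both routes work mainly in S and G2 phase, and in the ovary they matter for dividing granulosa cells as well as for oocytes.

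The libraries held 138647495 to 178279122 UMIs, and 6040 to 7956 cells per library passed filtering. Pairs of libraries shared 7 to 22 cell barcodes. Joint clustering gave classes named from markers and written with "-like", of which 7 had at least 50 cells in every library. Granulosa-like cells numbered 2159, 2013, 2331 and 3039 in library order. Their summed granulosa markers lay at 6264 to 8660 CPM (UMIs per 1000000), against 4.67 to 27.1 CPM for oocyte markers and 73.8 to 90.1 CPM for stroma markers. One cluster of 80 granulosa-like cells held 78 cells of the doxorubicin library, and theca-like cells of both AMH-treated libraries lay mostly in a different cluster from those of the other two. Of the 182 cells of 1 mural smooth muscle-like cluster 179 came from doxorubicin, and granulosa genes such as Inhba were among its leading genes.

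Promoter sequences of 23 of the 31 members were found in RefSeq (GRCm38.p6), each from 250 bases before to 50 bases after the start site. They were searched on both strands for TTCGCGC, for TTGGCGC, for TTCCCGC and for TTGCCGC, letters typical of sites of E2F, the family of transcription factors that switches on S-phase genes. A match was found in 14 of these 23 members, and in 9.57% of all 32851 windows of this length. GC content differs between these sets: among windows with at least 60% GC, 8 of 13 member windows and 19.9% of all windows held a match. For 6 genes the 250 bases before the start are given here in lower case with matches in capitals, to set promoters of cycle-coupled and other members side by side. The first 3 genes rose in cycle-high granulosa-like cells by at least 1 log2 unit, and the last 3 changed little or did not pass the test. All 6 were chosen among windows with a match.

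Ube2t, chr1:134962315-134962564, plus strand: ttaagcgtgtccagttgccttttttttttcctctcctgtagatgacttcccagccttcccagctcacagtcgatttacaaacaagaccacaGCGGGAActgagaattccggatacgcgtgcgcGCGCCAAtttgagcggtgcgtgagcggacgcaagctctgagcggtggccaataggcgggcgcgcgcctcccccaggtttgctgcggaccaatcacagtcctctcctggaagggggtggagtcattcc

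Fancb, chrX:164980342-164980591, plus strand: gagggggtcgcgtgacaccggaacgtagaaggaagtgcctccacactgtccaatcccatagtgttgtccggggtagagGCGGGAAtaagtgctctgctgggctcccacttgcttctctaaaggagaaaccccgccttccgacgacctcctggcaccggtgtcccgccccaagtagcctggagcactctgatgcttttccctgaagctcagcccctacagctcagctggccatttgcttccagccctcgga

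Brca2, chr5:150522371-150522620, plus strand: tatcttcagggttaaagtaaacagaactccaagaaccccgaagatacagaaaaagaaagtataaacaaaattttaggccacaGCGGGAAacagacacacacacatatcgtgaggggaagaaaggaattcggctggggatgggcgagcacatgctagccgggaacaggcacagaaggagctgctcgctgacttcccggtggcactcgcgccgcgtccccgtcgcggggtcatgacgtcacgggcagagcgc

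Fancm, chr12:65075353-65075602, plus strand: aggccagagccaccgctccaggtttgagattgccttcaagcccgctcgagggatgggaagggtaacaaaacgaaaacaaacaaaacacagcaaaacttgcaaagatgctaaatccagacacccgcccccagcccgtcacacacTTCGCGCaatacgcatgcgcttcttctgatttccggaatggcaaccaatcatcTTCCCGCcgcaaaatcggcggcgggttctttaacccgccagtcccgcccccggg

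Fancf, chr7:51862268-51862517, minus strand: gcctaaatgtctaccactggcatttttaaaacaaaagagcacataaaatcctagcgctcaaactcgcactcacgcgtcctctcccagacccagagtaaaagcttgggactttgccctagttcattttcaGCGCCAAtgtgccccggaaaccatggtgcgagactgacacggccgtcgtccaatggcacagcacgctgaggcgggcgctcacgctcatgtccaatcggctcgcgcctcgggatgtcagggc

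Rad52, chr6:119902448-119902697, plus strand: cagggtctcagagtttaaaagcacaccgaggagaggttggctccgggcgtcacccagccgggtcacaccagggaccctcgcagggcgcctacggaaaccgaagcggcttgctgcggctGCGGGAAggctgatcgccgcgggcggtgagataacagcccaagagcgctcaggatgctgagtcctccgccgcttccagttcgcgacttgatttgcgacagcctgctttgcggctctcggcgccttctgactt

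Windows of Exo1, Fancd2, Rad54b, Xrcc2, Rad50, Nbn, Rbbp8 and Rad51d were not used here. Of the members with a window, 9 of the 12 that rose by at least 1 log2 unit in cycle-high cells held a match, as did 5 of the other 11. Ube2t, Fancm, Rad51c and Dmc1 held more than 1 match, which overlap in Dmc1. Palb2, Rad54l and Fanca rose by at least that much without these letters in their windows. A match describes the sequence and is not a shown binding site.

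Without Rad51b, the summed members were higher in granulosa-like cells than in stroma-like, mural smooth muscle-like, theca-like, macrophage-like and blood endothelial-like cells. Rad51b, a strand exchange gene, gave 40.9 to 47.3% of all member UMIs in granulosa-like cells and 61.0 to 66.9% in stroma-like cells, so sums are given with and without it. The other 30 members summed to 522, 488, 542 and 485 CPM in granulosa-like cells, in library order. In stroma-like cells the same sum was 434, 423, 402 and 396 CPM, below every granulosa-like library. It was 312 to 353 CPM in mural smooth muscle-like, 289 to 331 in macrophage-like and 269 to 294 in theca-like cells, the steroid-producing cells around the follicle. Blood endothelial-like cells (363 to 465 CPM) overlapped with stroma-like cells, and epithelial-like cells (361 to 693 CPM) overlapped with granulosa-like cells. Macrophage-like cells overlapped with both theca-like and mural smooth muscle-like cells. CPM values are not divided by gene length, so levels are compared between classes and not between genes. Classes also differed in their share of cells with many cycle transcripts, given below, and its part in the class levels was not tested.

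Gene by gene, 19 of 31 members were higher in all 4 granulosa-like sums than in all 4 stroma-like sums, 7 were lower and 5 overlapped. Over all 16364 genes compared the background was 36.8% higher and 32.2% lower. Brca1, whose product forms a ubiquitin ligase with BARD1 and steers breaks towards recombination, was at 26.1, 24.3, 32.5 and 24.4 CPM in granulosa-like cells. In stroma-like cells it was at 8.56, 8.44, 8.92 and 8.12 CPM, and the classes did not overlap. Exo1, an exonuclease that cuts back break ends, was at 9.62 to 11.7 CPM in granulosa-like and 3.76 to 4.59 CPM in stroma-like cells. Brca1, Brca2, Xrcc2, Rad54b, Blm and Fancm were higher in every granulosa-like library than in every library of the other 6 classes, which makes 6 of 31 members against 6.31% of 18032 genes. The 7 members lower than in stroma-like cells were Rad51b, Rad51c, Rad52, Dmc1, Fancc, Fance and Fancf. Fancc, a core complex subunit, lay at 23.0 to 27.2 CPM in granulosa-like and 39.3 to 49.3 CPM in stroma-like cells.

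Rad51b had the widest range of class medians among members detected in every class. In stroma-like cells it was at 740, 661, 798 and 801 CPM. Theca-like cells held 21.7, 23.9, 33.5 and 44.5 CPM, so even the lowest stroma-like library stood far above the highest theca-like one. Granulosa-like (338 to 487 CPM) and mural smooth muscle-like cells (339 to 447 CPM) overlapped between these extremes. Within stroma-like cells the cluster led by Kcnk2 held 1554 to 1762 CPM, while the cluster led by Enpep held 147 to 208 CPM. The Rad51b gene spans 517.4 kb at chr12:79297282-79814690 (plus strand, GRCm38, GENCODE vM21), the longest span of the 31 members. Whether reads from introns were counted is not given in the sources used here, and with them the count of a gene this long would hold unspliced transcripts.

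**Figure D1:**
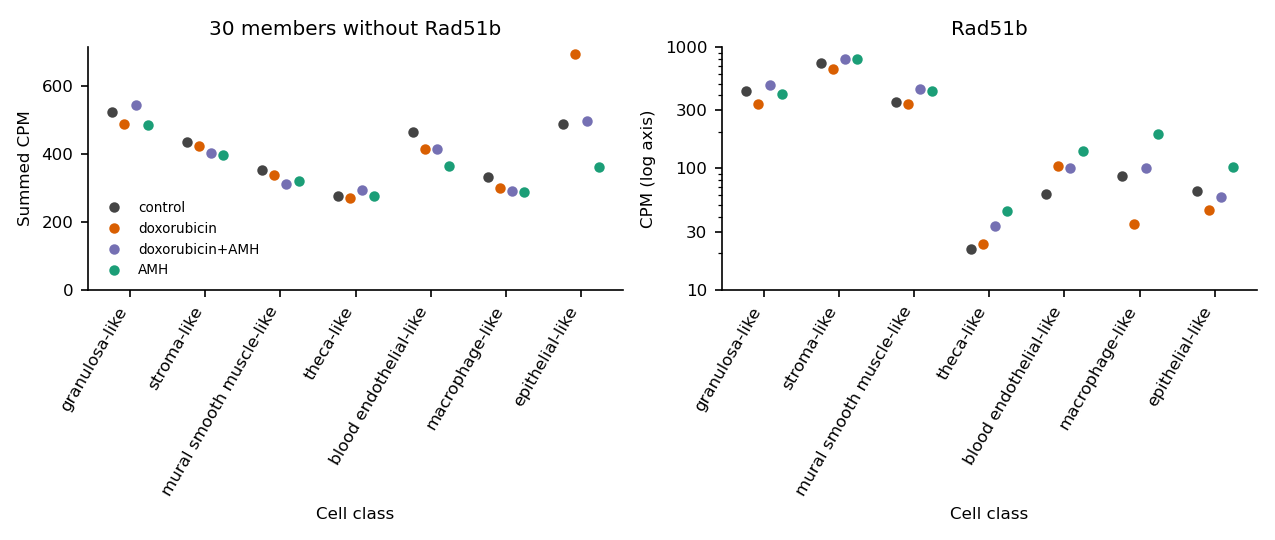
Summed CPM of 30 members without Rad51b (left) and CPM of Rad51b on a log axis (right) in 7 cell classes, with 1 point per library, coloured by group. Granulosa-like cells lie at 485 to 542 CPM for the 30 members, and Rad51b reaches 801 CPM in stroma-like cells against at most 44.5 CPM in theca-like cells.

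Most members were higher in granulosa-like cells with more cycle transcripts. A cell was called cycle-high when, thinned to 2000 UMIs, it had at least 5 UMIs of S and G2/M phase genes, none of which is a member. In granulosa-like cells the cycle-high share was 53.6% in control and 55.4% in doxorubicin, and with AMH it was 63.8% (doxorubicin+AMH) and 61.3% (AMH). The share was 35.4 to 40.9% in stroma-like cells. This limit is a point on a range and not a cell type: 25.2 to 31.5% of cells had 4 to 6 such UMIs, and 22.7 to 27.8% of theca-like cells passed it too. Counts of cycle-high and cycle-low cells were summed per library and compared with edgeR's quasi-likelihood test over 14865 genes, with library as a block. Of the 31 members 26 were higher in cycle-high cells at an adjusted p under 0.05, none was lower and 5 did not pass. The background was 29% of genes higher and 28.5% lower, and the median log2 change was 1.00 over the members and -0.01 over all genes. Cycle-high cells were also deeper, with a median of 27069.5 against 19290.5 UMIs in control and 18544 against 15608.5 in AMH, and the part of depth in these values was not tested.

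Among the BRCA mediators all 4 rose. Brca1 was at 39.8, 37.8, 45.2 and 35.0 CPM in cycle-high cells. It was at 4.83, 3.81, 4.03 and 5.41 CPM in cycle-low cells, far below in each library (log2 change 3.13, SE 0.10, edgeR adjusted p = 6.4e-09). Its partner Bard1 rose by 2.81 (SE 0.09). Brca2, which acts on resected strands, went from 16.7 to 21.7 CPM in cycle-low to 40.3 to 51.7 CPM in cycle-high cells, a smaller log2 change of 1.27 (SE 0.05). Palb2, which bridges BRCA1 and BRCA2, rose by 1.25 (SE 0.11).

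All 6 end resection genes rose, and by very different amounts. Exo1 was at 17.4, 18.2, 16.5 and 14.2 CPM in cycle-high cells and at 0.98, 1.48, 0.88 and 1.46 CPM in cycle-low cells, with no overlap. Its log2 change of 3.79 (SE 0.13, edgeR adjusted p = 8.2e-09) was the largest of the 31. Blm, a helicase that cuts back ends and undoes crossed strands, rose by 2.01 (SE 0.07). The break sensor of MRE11, RAD50 and NBN changed less: Rad50 by 0.71 (SE 0.04), Mre11a by 0.66 (SE 0.06) and Nbn by 0.53 (SE 0.05). Rbbp8, whose product CtIP starts resection, rose by 0.32 (SE 0.04), from 66.0 to 73.4 CPM in cycle-low cells to 81.3 to 87.5 CPM in cycle-high cells.

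Of the 9 strand exchange genes 6 rose. Rad54b, a motor protein that acts on chromatin during strand exchange, rose by 2.48 (SE 0.10), and its relative Rad54l by 1.12 (SE 0.06). Rad51c, Xrcc3 and Xrcc2, whose products form complexes that assist strand exchange, rose by 1.09 (SE 0.11), 1.00 (SE 0.19) and 0.90 (SE 0.09). Over all granulosa-like cells Rad51b rose by 0.44 (SE 0.05), from 339, 266, 421 and 366 CPM to 497, 385, 516 and 435 CPM in library order. Rad51d, which acts in the same complexes, was lower in cycle-high cells of all 4 libraries and did not pass the test (log2 -0.15, SE 0.06, edgeR adjusted p = 0.054). Rad52, an annealing protein, had similar values (log2 -0.15, SE 0.07, edgeR adjusted p = 0.10). With the limit raised to 10 UMIs both passed as lower, at log2 -0.20 for Rad51d and -0.23 for Rad52, as did 31% of genes. Dmc1, the meiotic recombinase, stayed at 0.67 to 1.33 CPM in both states and did not pass (edgeR adjusted p = 0.31).

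The Fanconi genes ranged from changes above 3 log2 units to none past the test. Fancd2 was at 11.8, 9.23, 11.1 and 9.63 CPM in cycle-high and at 0.83, 1.23, 1.45 and 1.21 CPM in cycle-low cells (log2 change 3.18, SE 0.14, edgeR adjusted p = 4.2e-08). Its partner Fanci rose by 2.39 (SE 0.11), and Brip1, a helicase bound to BRCA1, by 2.47 (SE 0.14). In the core complex and its enzyme, 7 of 9 genes rose. Ube2t, the ubiquitin-conjugating enzyme, rose by 2.54 (SE 0.10), Fanca by 2.08 (SE 0.11) and Fancb by 1.86 (SE 0.21). Fancg rose by 0.95 (SE 0.14) and Fancf by 0.33 (SE 0.12). The DNA-binding translocase Fancm and the ubiquitin ligase Fancl rose by 0.22 (SE 0.05) and 0.21 (SE 0.07). Fance and Fancc did not pass, at 0.13 (SE 0.07) and 0.12 (SE 0.05). Fancf lost its call when any 1 library was left out (edgeR adjusted p 0.064 to 0.13), and Fancl lost it without the control (0.094) or the doxorubicin+AMH library (0.068).

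**Figure D2:**
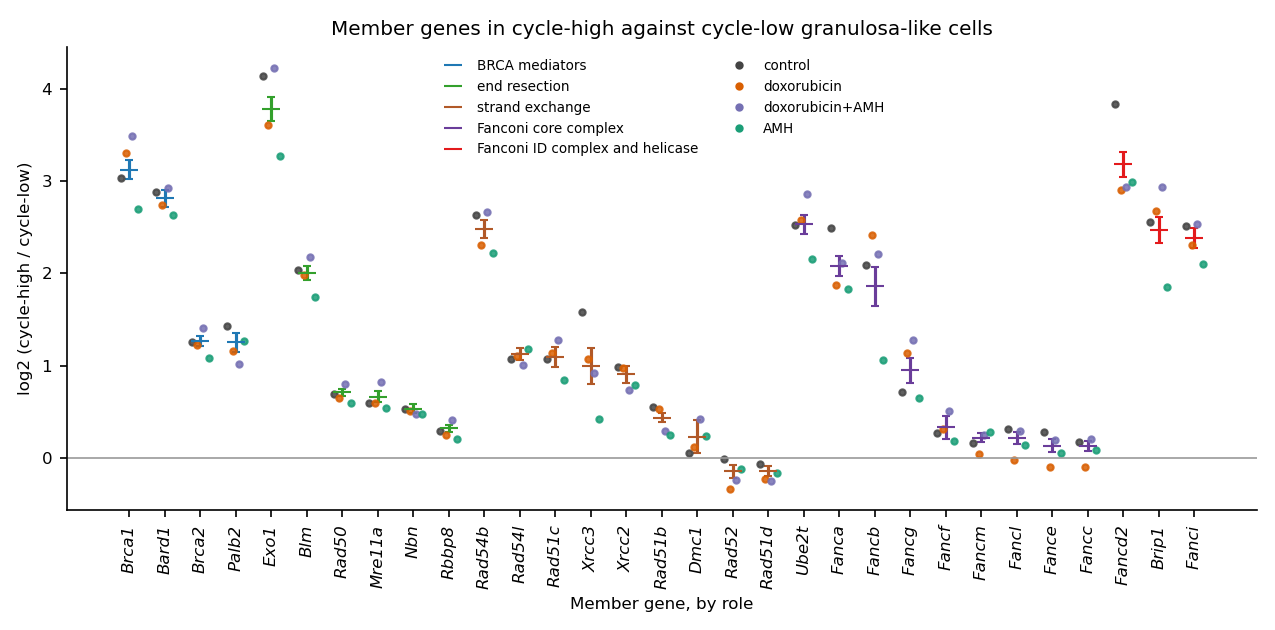
Log2 ratio of cycle-high to cycle-low granulosa-like cells for the 31 members, grouped by role. Points are the 4 libraries, and bars are the edgeR estimate with its standard error. Exo1, Fancd2 and Brca1 lie above 3, while Rad52 and Rad51d lie below 0 in every library.

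The levels followed the number of cycle UMIs in steps and were flat at its low end. Summed over 30 members without Rad51b, the median of the 4 libraries was 321 CPM in cells with 1 to 2 cycle UMIs, 339 with 3 to 4, 407 with 5 to 9, 665 with 10 to 19 and 826 with 20 or more. Fancd2, Fanci and Brip1 together went from 7.18 CPM at 1 to 2 UMIs to 83.9 CPM at 20 or more. Exo1 went from 0.61 to 27.4 CPM over these bins, and Brca1 from 3.87 to 70.2 CPM. Medians of Fancc lay between 22.9 and 26.1 CPM in all bins. Rad52 went the other way, from 10.7 CPM at 1 to 2 UMIs to 8.22 CPM at 20 or more.

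**Figure D3:**
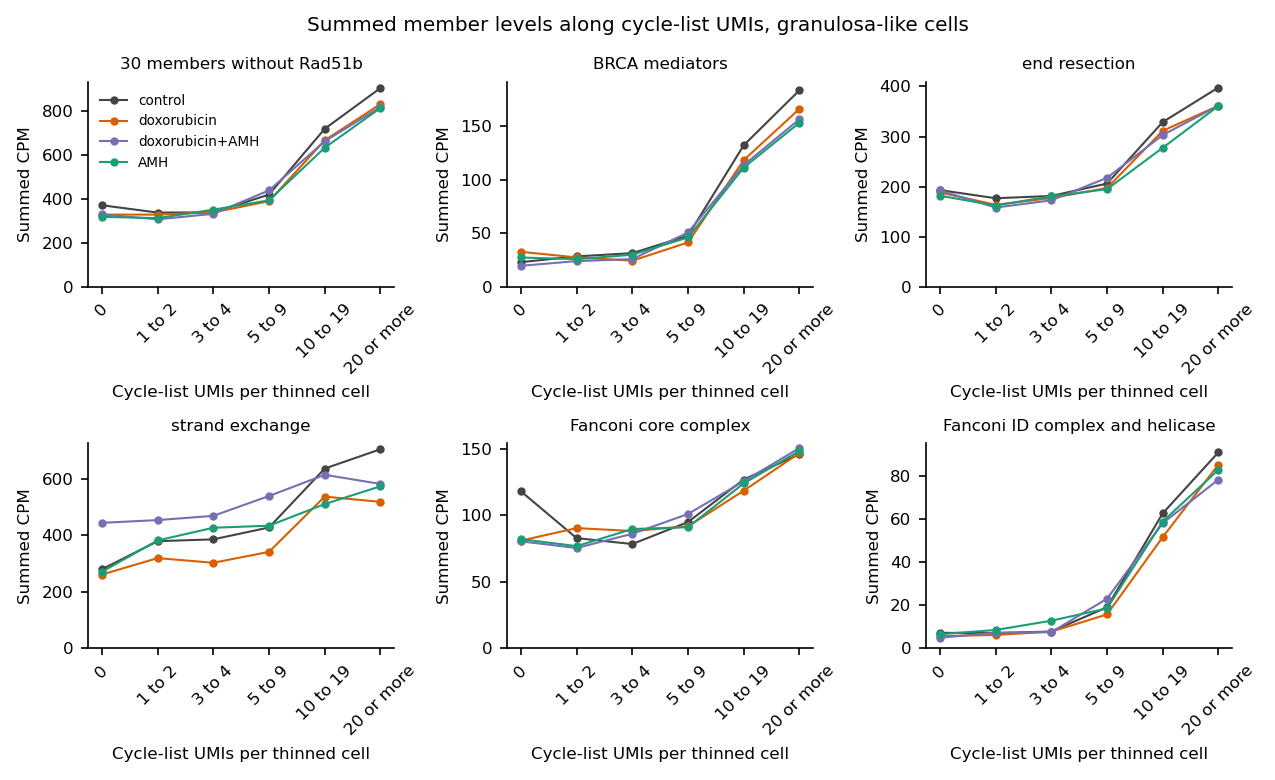
Summed CPM in granulosa-like cells binned by cycle UMIs per thinned cell, 1 line per library, for 30 members without Rad51b and for each role group. The 4 lines of the 30 members rise together from about 5 to 9 UMIs on, from a median of 407 CPM there to 826 CPM at 20 or more.

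Cycle-high and cycle-low cells were also compared inside granulosa-like clusters, a comparison chosen after the values were seen. In the clusters led by Fst, Inhba, Kcnq5 and Cntn4, the 30-member sum was higher in cycle-high cells of every library. The log2 ratio was 0.95 to 1.23 in the Fst cluster, 0.58 to 0.83 in the Inhba cluster, 0.80 to 0.95 in the Cntn4 cluster and 0.16 to 0.36 in the Kcnq5 cluster. The number of members higher in all 4 libraries was 22 of 28 tested in the Fst cluster (29.2% of all genes), 21 of 26 in the Inhba cluster (22.1%), 10 of 18 in the Kcnq5 cluster (11.4%) and 20 of 26 in the Cntn4 cluster (26%). Members lower in all 4 libraries numbered 2, 0, 1 and 1, against 19%, 19.9%, 7.56% and 33.5% of all genes. Of 18 members with at least 200 UMIs in each of the 4 clusters, 8 were higher in every library of all of them: Brca1, Brca2, Rad54l, Rad50, Nbn, Blm, Brip1 and Ube2t. None was lower in every library of all 4. Over all 10636 such genes 4.89% were higher in this way and 1.3% lower. For Rad51b the ratio within clusters was mostly smaller than over all granulosa-like cells: 0.08 in the Fst, 0.18 in the Inhba, 0.06 in the Kcnq5 and 0.72 in the Cntn4 cluster, with 3 of 4 libraries higher in the Fst and Kcnq5 clusters.

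Stroma-like cells showed similar sizes for the strongly coupled genes. Exo1 had a median log2 ratio over libraries of 3.87 (3.14 to 4.17), Brca1 of 3.33 (2.80 to 4.55), Fancd2 of 3.20 (2.27 to 3.48) and Ube2t of 2.92 (2.62 to 3.45) between cycle-high and cycle-low stroma-like cells. Rad51b differed in sign when each class was taken whole: it was lower in cycle-high stroma-like cells of all 4 libraries (log2 -0.47 to -0.19) and higher in cycle-high granulosa-like cells of all 4. Its level differed widely between stroma-like clusters, and inside 4 of them the ratio was -0.04 to 0.09 in the Kcnk2 and -0.35 to 0.14 in the Mfap4 cluster, above 0 in all libraries of the Enpep cluster (0.12 to 1.06) and below 0 in all of the Dpt cluster (-1.54 to -0.04). The 31-member sum hardly separated both states in stroma-like cells (-0.10 to 0.13), while the 30-member sum did (0.58 to 0.66). These stroma-like ratios were not tested.

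Within cycle-high granulosa-like cells, those with relatively more S-phase than G2/M UMIs were compared with the rest over 13812 genes. Of 30 members tested, 3 were higher in S-high cells and 4 lower, against a background of 10.3% and 11% of genes. Ube2t was at 11.9, 13.9, 15.5 and 11.1 CPM in S-high and at 18.2, 20.5, 22.6 and 18.3 CPM in G2/M-high cells. It was thus higher in G2/M-high cells of every library (log2 -0.61, SE 0.06, edgeR adjusted p = 1.0e-05). Fancd2 (log2 -0.42, SE 0.08), Fanci (-0.32, SE 0.08) and Rbbp8 (-0.12, SE 0.03) went the same way. Exo1 (0.39, SE 0.06), Rad54l (0.24, SE 0.07) and Fanca (0.23, SE 0.07) were higher in S-high cells. The counts depended on the limit for cycle-high cells: at 10 UMIs 13 members were higher in S-high cells, Brca1 (0.51), Bard1 (0.52) and Exo1 (0.75) among them, and only Ube2t was lower (-0.38), of 30 members tested and with 13.6% of genes called higher and 12.8% lower. Exo1 higher and Ube2t lower held in each fit without 1 library. Without the library block no member passed as higher and Ube2t alone as lower.

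Other genes of the pathway were tested in the same fit, in which 29% of all genes were higher and 28.5% lower. Of 48 further repair genes, 32 rose in cycle-high granulosa-like cells, 3 fell and 13 did not pass. Rad51ap1, which assists strand exchange, rose by 4.16 (SE 0.13), and Parpbp, an inhibitor of recombination, by 3.97 (SE 0.13). The genes that fell did so by small amounts: Fbh1 by 0.16, Rev3l by 0.15 and Babam2 by 0.15 on the log2 scale. Of 17 meiotic recombination genes 8 had enough UMIs, of which 5 rose, 1 fell and 2 did not pass. Msh5, which stabilises meiotic crossover intermediates, rose by 1.64 (SE 0.13), and the meiotic cohesin Rec8 fell by 0.45 (SE 0.12).

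No oocyte cluster was found, and 15 cells carried UMIs of at least 5 of 10 oocyte markers: 2 in control, 4 in doxorubicin, none in doxorubicin+AMH and 9 in AMH. This limit was chosen after the values were seen. These cells were large, with a median of 97556 UMIs, and 10 of them lay in granulosa-like and 5 in epithelial-like clusters. Over the 15 cells Brca2 was at 127 CPM (95% Poisson interval 109 to 147) and Rad50 at 333 CPM (304 to 364). Ube2t was at 229 CPM (206 to 255), but 252 of its 338 UMIs came from the 4 cells of doxorubicin. Dmc1 was at 8.15 CPM (4.21 to 14.2). In epithelial-like cells Ube2t ranged from 7.0 to 81.8 CPM with these cells and from 4.33 to 7.27 CPM without them. Too few cells were found for a comparison of groups.

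Between treatments the members of granulosa-like cells differed by small amounts, and the direction of the doxorubicin ratio was not the same with and without AMH. A ratio was called when it reached 0.5 log2 units in a gene with at least 200 UMIs, and intervals are exact 95% intervals of the ratio that cover counting error only. All 31 members passed this filter. The 31 members summed to 958, 826, 1029 and 896 CPM, so doxorubicin was lowest and doxorubicin+AMH highest. The clusters had different shares in the libraries: the Fst cluster, with 614 to 679 CPM of the 30 members without Rad51b, held 497, 401, 781 and 698 cells, and the Kcnq5 cluster, with 329 to 365 CPM, held 602, 467, 363 and 644. The log2 ratio was -0.21 (-0.23 to -0.20) for doxorubicin / control and 0.20 (0.18 to 0.22) for doxorubicin+AMH / AMH, which share no library. For the 30 members without Rad51b the log2 ratios were -0.10 (-0.12 to -0.07) and 0.16 (0.14 to 0.18). Over the 31 members the median log2 ratio was -0.07 for doxorubicin / control, with 11 above 0, and 0.14 for doxorubicin+AMH / AMH, with 26 above 0. The medians over all genes were -0.03 and -0.01.

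No member was called in doxorubicin / control, where 1.37% of genes were called higher and 2.93% lower. In doxorubicin+AMH / AMH only Dmc1 was called, as lower (log2 -0.61, interval -1.12 to -0.10), with 2.2% of genes called higher and 5.22% lower. Dmc1 rested on 52 UMIs in doxorubicin+AMH and 96 in AMH, and it was at -0.51 without the 15 cells with oocyte markers. It was also called higher in AMH / control (0.55, interval 0.06 to 1.06), where 2.91% of genes were called higher and 8.5% lower, and lost that call without those cells (0.45). In doxorubicin+AMH / doxorubicin Rad51b was called higher (0.53, interval 0.50 to 0.55), with a background of 3.35% higher and 9.76% lower. No further member was called. With median-of-ratios scaling 5 were called higher in that comparison (Brca1, Rad51b, Rad51c, Fancd2 and Fanci), with 4.93% of all genes called higher and 7.68% lower. In cycle-low cells alone Fanca was called higher in doxorubicin / control (0.73), with 1.5% of genes called higher and 2.07% lower. Brip1 was called lower in doxorubicin+AMH / AMH (-0.90), with 2.03% and 3.39%. In AMH / control Fanca (0.74) and Brip1 (0.65) were called higher and Rad54l (-0.54) lower, with 2.62% and 7.37%. Rad51b was called higher in doxorubicin+AMH / doxorubicin (0.66), with 2.38% and 7.35%.

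Below the call limit, 8 members had doxorubicin ratios of opposite sign with both intervals apart from 0, each lower in doxorubicin than in control and higher in doxorubicin+AMH than in AMH. Of all 14876 genes 4.24% had this pattern and 2.78% the reverse, which no member had. Fanci was at 6.26, 4.89, 6.73 and 5.47 CPM (log2 -0.36 and 0.30). Fancd2 was at 7.54, 6.07, 8.14 and 6.60 CPM (-0.31 and 0.30), and Brca2 at 39.9, 32.4, 35.9 and 32.6 CPM (-0.30 and 0.14). Doxorubicin was the lowest library for these 3 genes. Brca1 had its highest level in doxorubicin+AMH, with ratios of -0.10 (-0.20 to -0.00098) and 0.42 (0.32 to 0.51). Rad50 (-0.19 and 0.27), Blm (-0.20 and 0.19) and Rad54l (-0.20 and 0.21) had the same pattern, as did Rad51b. In cycle-low cells the second ratio was below 0 for Brca1 (-0.43), Blm (-0.27), Brca2 (-0.18) and Fanci (-0.18) and above 0 for Rad54l (0.30), Fancd2 (0.26), Rad51b (0.20) and Rad50 (0.08). In cycle-high cells it was above 0 for all 8, from 0.13 for Rad54l to 0.37 for Brca1. The first ratio was below 0 in cycle-low cells for each of the 8 except Fancd2, at 0.57. Cycle-low Fancd2 was only at 0.83 CPM in control and 1.23 CPM in doxorubicin. Fancd2 and Fanci had too few UMIs in cycle-low cells to pass the filter used for calls. No conclusion is drawn from the signs of their cycle-low ratios. Intervals are not given for the cycle-low ratios of any of the 8. At a fixed share of UMIs from cycle-high cells the second ratio was 0.32 for Brca1, 0.24 for Rad50, 0.23 for Rad51b and 0.21 for Fancd2 and Fanci. It was 0.17 for Rad54l, 0.11 for Blm and 0.08 for Brca2. With cells weighted to the same mix of 5 bins of cycle UMIs it was 0.22 for Rad51b, 0.17 for Rad50, 0.13 for Brca1, 0.11 for Rad54l, 0.06 for Fanci, -0.01 for Brca2 and Fancd2 and -0.03 for Blm. Ube2t was higher in both comparisons (0.17 and 0.40), at 10.1, 11.4, 14.3 and 10.8 CPM. The difference between both doxorubicin ratios could not be tested with 1 library per group.

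Rad51b was at 436, 338, 487 and 411 CPM in granulosa-like cells, lowest in doxorubicin and highest in doxorubicin+AMH. This order did not hold in each cluster: in the Kcnq5 cluster doxorubicin (304 CPM) was above control (299.8 CPM), in the Inhba cluster doxorubicin+AMH (308 CPM) was below AMH (313 CPM), and in the Cntn4 cluster control (474 CPM) was highest. Its log2 ratio was -0.37 (-0.39 to -0.34) for doxorubicin / control and 0.24 (0.22 to 0.27) for doxorubicin+AMH / AMH. In cycle-low cells alone the ratios were -0.35 and 0.20, close to those over all granulosa-like cells. Genes with a span above 300 kb, 493 in number, had median ratios of -0.19 and -0.21 in these comparisons, so long genes as a group lay below 0 in both. In doxorubicin+AMH / doxorubicin they had a median of -0.23, against 0.53 for Rad51b. In stroma-like cells Rad51b had ratios of -0.16 (-0.19 to -0.14) and -0.01 (-0.04 to 0.02).

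**Figure D4:**
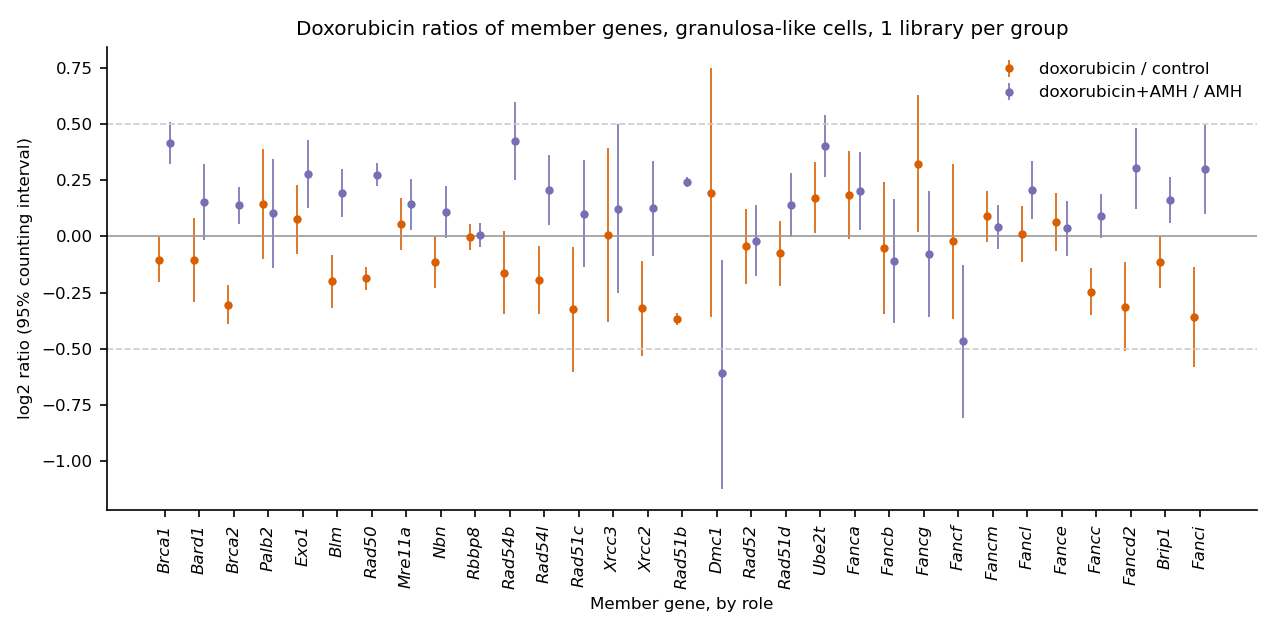
Log2 ratios of the 31 members in granulosa-like cells for doxorubicin / control and doxorubicin+AMH / AMH, with exact 95% counting intervals; dashed lines mark the call limit of 0.5. Fanci, Fancd2 and Rad51b lie below 0 without AMH and above 0 with it, and only Dmc1 passes the limit.

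For AMH alone the members are given beside all genes. The 31-member ratio of AMH / control was -0.10 (-0.11 to -0.08), and 11 of 31 members were above 0, at a median of -0.10 against -0.09 over all genes. The sign of the sum rested on the scaling: it was 0.01 with median-of-ratios scaling and 0.11 with each cell weighted equally. With median-of-ratios scaling 16 of 31 members were above 0. Rad54l (-0.42, interval -0.57 to -0.28), Xrcc2 (-0.38, -0.58 to -0.18) and Fancl (-0.37, -0.49 to -0.24) were lowest, and Fancm was at 0.31 (0.20 to 0.41). For the 30 members without Rad51b the ratio was -0.17 in cycle-high and -0.02 in cycle-low cells.

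Cycle genes differed between libraries too. The cycle-high share was 63.8% (95% interval 61.8 to 65.8%) in doxorubicin+AMH and 61.3% (59.5 to 63.1%) in AMH, so the intervals overlapped, and each is 1 library. The median log2 ratio of 54 G2/M genes was -0.07 in doxorubicin / control and 0.43 in doxorubicin+AMH / AMH, and that of 37 S-phase genes was 0.05 and 0.25. Medians of 29 p53 target genes were 0.30 and 0.06, and those of 19 tissue dissociation genes 0.03 and 0.02. Member ratios were therefore recomputed with cycle-high cells at 1 fixed share of UMIs (63.7%). The 31-member ratios became -0.21 and 0.17, and those of the 30 members -0.10 and 0.12. With 5 bins of cycle UMIs in place of 2 groups, an alternative chosen after the values were seen, the 30-member ratios were -0.09 and 0.04. In doxorubicin+AMH / doxorubicin the 30-member ratio went from 0.15 to 0.08 with 2 groups and to 0.02 with 5 bins.

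Within the bins the 30-member ratios of doxorubicin / control were -0.05 at 0 to 2 cycle UMIs, 0.00 at 3 to 4, -0.11 at 5 to 9, -0.11 at 10 to 19 and -0.12 at 20 or more. The intervals lay below 0 in the 3 upper bins and included 0 in the lower ones. For doxorubicin+AMH / AMH the ratios were -0.01, -0.08, 0.16, 0.07 and 0.01 over the same bins, with the highest value in the middle bin. The 31-member ratio of doxorubicin / control stayed between -0.25 and -0.16 in all bins. In each of 6 granulosa-like clusters the 30-member ratio of doxorubicin / control was below 0, from -0.22 to -0.03. That of doxorubicin+AMH / AMH was 0.09 in the Fst, 0.01 in the Inhba, 0.01 in the Kcnq5 and 0.09 in the Cntn4 cluster, and ran from -0.15 to 0.22 over all 6.

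**Figure D5:**
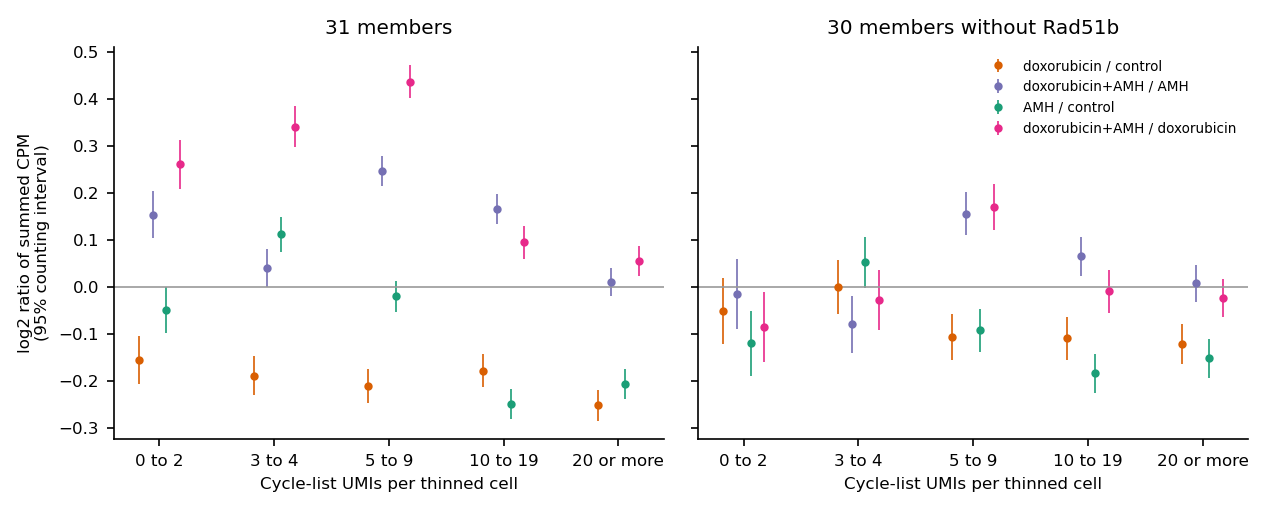
Log2 ratios of summed CPM by bin of cycle UMIs in granulosa-like cells, with 95% counting intervals, for all 31 members (left) and 30 members without Rad51b (right). Without Rad51b the doxorubicin+AMH / doxorubicin ratio lies at 0.17 in the middle bin and between -0.08 and -0.01 in the others.

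In stroma-like cells 29 members passed the filter. The 30-member ratio was -0.04 (-0.07 to -0.0050) for doxorubicin / control and 0.02 (-0.02 to 0.06) for doxorubicin+AMH / AMH. It was -0.13 (-0.17 to -0.09) for AMH / control, where the G2/M genes had a median of -0.28 with 3 of 54 above 0, whose part was not tested, and -0.07 (-0.11 to -0.03) for doxorubicin+AMH / doxorubicin. No member was called in doxorubicin / control, against 1.77% of genes higher and 2.52% lower. None was called in doxorubicin+AMH / AMH, against 1.98% and 3.22%. In AMH / control Fancf was called higher (0.54) and Rad54l (-0.63) and Rad54b (-0.57) lower, with 2.06% and 4.52% of genes called. Rad54l was at 12.9, 11.5, 11.0 and 8.34 CPM, with AMH lowest as in granulosa-like cells. Rbbp8 was at 94.6, 93.4, 80.8 and 69.5 CPM, lower in both AMH-treated libraries, with an AMH / control ratio of -0.45 (-0.53 to -0.36). In doxorubicin+AMH / doxorubicin Fancd2 was called lower (-0.56, interval -1.001 to -0.13), with 2.2% of genes called higher and 4.4% lower.

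In theca-like cells 21 members passed the filter, and Fanci stood apart. It was at 4.06, 1.59, 13.2 and 2.87 CPM, from 108, 33, 224 and 53 UMIs, so doxorubicin+AMH was highest and doxorubicin lowest. Its UMIs in doxorubicin+AMH came from 94 cells, with at most 10 in a cell. Fanci was called lower in doxorubicin / control (-1.35, interval -1.96 to -0.78) and higher in doxorubicin+AMH / AMH (2.19, interval 1.76 to 2.65), and no other member was called in either. The background was 2.91% higher and 2.04% lower in the first and 2.86% and 3.76% in the second. In AMH / control Rad51b (1.03), Ube2t (0.94), Brip1 (0.81) and Brca2 (0.64) were called higher and Xrcc2 (-0.52) lower, where 13.5% of genes were called higher and 12.5% lower. In doxorubicin+AMH / doxorubicin Fanci (3.05), Rad52 (0.76) and Rbbp8 (0.53) were called higher and none lower, with 11.5% and 13.6% of genes called. In AMH / control the 19 dissociation stress genes had a median of 0.63, with 19 above 0, and the G2/M genes one of 0.74, with 43 of 49 above 0. The G2/M median was 0.80 in doxorubicin / control and 0.29 in doxorubicin+AMH / AMH, and the cycle-high share was 22.7%, 23.2%, 27.8% and 27.8% in library order. The part of these in the calls was not tested. Theca-like cells of both AMH-treated libraries lay mostly in a different cluster, whose part in these last 2 comparisons was not tested.

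In mural smooth muscle-like cells 14 members passed. Blm was called higher in doxorubicin / control (0.57, interval 0.09 to 1.05) and lower in doxorubicin+AMH / doxorubicin (-1.28, interval -1.88 to -0.71), with 3.97% of genes called higher and 4.16% lower in the first and 1.58% and 6.28% in the second. The cycle-high share was 28.2%, 43.3%, 32.7% and 28.8% in library order, and the G2/M genes had a median of 0.38 in doxorubicin / control, with 36 of 40 above 0. Their part in the Blm values was not tested. Rad54l was called lower in AMH / control (-0.67, with 1.49% of genes called higher and 4.73% lower) and in doxorubicin+AMH / doxorubicin (-0.70). No member was called in doxorubicin+AMH / AMH, where 2.32% of genes were called higher and 4% lower. The doxorubicin values include the cluster with granulosa genes among its leading genes, whose part was not tested. In the other 3 classes 3 to 11 members passed, and their calls are not described.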

How the data were processed

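Single-cell RNA libraries (10x 3′ v3.1) of 4 groups were used, with 1 library per group. Whole-number UMI counts per gene and cell were deposited by the authors as filtered matrices made with Cell Ranger 7.0.0, per the file headers. The genome was mm10, and R 4.2.0 and Seurat 4.1.0 were used, per the submitters' processing notes. Whether intron reads were counted is not given in the sources used here. The members and all lists were chosen with earlier results of these data known.

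Barcodes below 1000 UMIs or above 20% mitochondrial UMIs were left out. Doublets were found with Scrublet in scanpy 1.11.5 and removed at 0.8% per 1000 cells, because its automatic limit marked 0 or 1 cell per library. Clusters (2000 variable genes, 30 components, Leiden resolution 1.0) were named when 50% of a class's markers were raised, a limit set after the clusters were seen. CPM is the summed member count per 1000000 UMIs of a class and library.

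Cycle contrasts used edgeR 4.0.16 (quasi-likelihood, genes with at least 200 UMIs, library as block, Benjamini-Hochberg adjustment); this pairing is within a library, since both sums come from the same animals. Tested on simulated data with 200 changed genes, the cycle-high fit over 14865 genes recovered 97% of genes changed by 1 log2 unit and 82% of those changed by 0.5, with 6 false calls. The S-high fit over 13812 genes recovered 95% and 85%, with 15 false calls. The simulated counts had 1 fixed spread (dispersion) for all genes, not estimated from these data. Far more genes were called in the actual cycle-high fit, 29% higher and 28.5% lower. These figures therefore do not give the error rates of the actual fits. Treatment ratios have exact 95% intervals for counting error and no test. All 31 members are accounted for. Named in full are those called in granulosa-like cells in a treatment comparison or past an adjusted p of 0.05 in a cycle test. Of other repair and meiotic genes, those with the 3 highest and 3 lowest changes are named, except 1 that is not reported here. Alternatives were DESeq2 1.42.0, other filters, scalings, cycle limits and cell sets, and leaving out each library. Coordinates are from GENCODE vM21 (GRCm38) and promoters from RefSeq (GRCm38.p6).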

Additional observations from a re-analysis of the deposited data

Results flagged for a closer look

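In granulosa-like cells the doxorubicin log2 ratio had opposite signs without AMH (doxorubicin / control) and with AMH (doxorubicin+AMH / AMH) for both sums and 8 members, with counting intervals apart from 0. With 1 library per group the difference was not tested. For the 31 members the ratios were -0.21 and 0.20, a difference of 0.41. For the 30 members without Rad51b they were -0.10 and 0.16, a difference of 0.26. The second of these was 0.12 at a fixed share of UMIs from cycle-high cells and 0.04 with 5 bins of cycle UMIs. Fanci had -0.36 and 0.30 (difference 0.66), Fancd2 -0.31 and 0.30 (0.62) and Rad51b -0.37 and 0.24 (0.61). Brca1 had -0.10 and 0.42 (0.52), Rad50 -0.19 and 0.27 (0.46) and Brca2 -0.30 and 0.14 (0.44). The first interval of Brca1 ended just below 0. With median-of-ratios scaling the median doxorubicin / control ratio of the 31 members was -0.02, against -0.07 as reported. Intervals of single members are not given under that scaling. Rad54l had -0.20 and 0.21 (0.40), and Blm had -0.20 and 0.19 (0.39). With 5 bins of cycle UMIs the second ratio was no longer above 0 for Fancd2, Brca2 and Blm, and it stayed above 0 for the others. In theca-like cells Fanci had -1.35 and 2.19, a difference of 3.54, also not tested. The share of cycle-high cells also differed between these libraries, at 53.6% (control) and 55.4% (doxorubicin) without AMH and 63.8% (doxorubicin+AMH) and 61.3% (AMH) with it.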

How the results depend on the processing

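Of the values computed under alternatives, 91 stayed close to those reported, 53 moved and 0 of those called changed sign. The 31-member AMH / control ratio, which is not a call, did change sign. It went from -0.10 to above 0 with median-of-ratios scaling and with cells weighted equally. In the order doxorubicin / control, doxorubicin+AMH / AMH, AMH / control and doxorubicin+AMH / doxorubicin, the 31-member log2 ratios were -0.16, 0.23, 0.0086 and 0.40 with median-of-ratios scaling, and -0.18, 0.13, 0.11 and 0.42 with cells weighted equally. At a fixed cycle-high share they were -0.16, 0.20, -0.017 and 0.34, and -0.19, 0.14, 0.047 and 0.37. Without Rad51b the first, second and last were -0.10, 0.16 and 0.15, or -0.10, 0.12 and 0.082 at a fixed share. A mitochondrial limit of 10% gave doxorubicin+AMH / doxorubicin ratios of 0.29, or 0.25 at a fixed share. A marker gate on single cells moved the third of these ratios to -0.15 and the last to 0.26, or -0.17 and 0.21 at a fixed share. Without the Kcnq5 cluster, left out after the data were seen, the first 2 ratios were -0.28 and 0.14, or -0.26 and 0.12 at a fixed share. At a cycle limit of 3 UMIs the last 3 fixed-share ratios were 0.19, -0.10 and 0.30, and at 10 UMIs doxorubicin+AMH / AMH was 0.14 and doxorubicin+AMH / doxorubicin 0.23. With 5 bins of cycle UMIs, also added later, these were 0.12 and 0.22. Median-of-ratios scaling called 5 members higher in doxorubicin+AMH / doxorubicin. At 10 UMIs 2 members were lower in cycle-high cells. Of the S-high comparison, DESeq2 called 1 member higher and 2 lower, the fit with no library block (no pairing within a library) 0 and 1, a limit of 3 UMIs 1 higher, and a limit of 10 UMIs 13 and 1. Leaving out 1 library gave 1 to 3 higher and 2 to 4 lower. The causes were not tested. Members with few UMIs, such as Dmc1, are limited by depth.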
